A study of Mus musculus with 6 samples.

Results

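The *Hox* genes encode the homeodomain transcription factors that give cells of the embryo their position along the head-to-tail axis. In the mouse they are the 39 genes of the HoxA, HoxB, HoxC and HoxD clusters, found here by the pattern of a cluster letter followed by a paralog number, and all 39 had a probe on the array (46 probes, with 2 probes for 7 genes) among 22911 genes that could be named. Within a cluster the genes lie in the order of their paralog numbers, and low numbers are used toward the hindbrain and high numbers toward the tail. Forebrain and midbrain tissue normally keeps the clusters silent, while hindbrain and spinal cord use their low and middle members. The clusters are classical targets of the Polycomb repressive complexes, which mark silent *Hox* genes with trimethylation of lysine 27 of histone H3, and in H3.3K27M a methionine takes the place of that lysine in the variant H3.3. The question addressed here was which *Hox* genes differed between cells with and without H3.3K27M, by cluster and by position.

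OS3 is a line of glial cells from the brain of newborn C3H/HeN mice (labeled C3H, male) immortalized with SV40, and both groups carry this immortalization. The OS3-vector samples (WT, n = 3) carry an empty vector and the OS3-H3F3A_K27M samples (IG27, n = 3) carry an H3.3K27M plasmid, and the total RNA of both was taken after 2 days of culture in the same medium. Clones were established by drug selection, and the number of clones behind IG27 is not given in the sources used here, so the histone and the history of a clone cannot be told apart. The labels do not say whether the samples of a group were separate cultures, so the p-values measure the spread between these samples, which may be technical.

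Each sample was read on 1 single-color array of 1 slide. Levels are normalized log2 intensities, that is log2 of the processed signal minus the 75th percentile of the array, and differences are IG27 minus WT on that scale. On the 5 arrays with complete scanner output, 58.8% to 61.2% of 56605 probes carried the scanner software's flag for a signal well above background, and no spot was saturated. IG27 replicate 2 has no such flags, because its scanner output holds 285 of 62976 spots and its values came from the table of processed signals. Of the glial markers, *Gfap*, the astrocyte filament gene, *Sox10* and *Olig2* carried it on all 5. The glutamate transporter gene *Slc1a3* carried no flag in WT cells and was at least 20.6-fold higher in IG27 cells. The 3 *H3f3a* probes differed by -0.26 to 0.17 between the groups, and it is not known whether any of them reads the plasmid's RNA, so they do not check the labels.

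Most *Hox* genes were dim in both groups. Well above background on every complete array were 11 of 39 genes in WT cells and 9 of 39 in IG27 cells, of which 8 were shared. WT cells alone showed *Hoxb13*, *Hoxc6* and *Hoxd4*, and IG27 cells alone showed *Hoxa10*. The shared genes included *Hoxa2*, *Hoxa3*, *Hoxa4*, *Hoxa5*, *Hoxa7*, *Hoxa9* and *Hoxb3*, and 7 of 8 belonged to HoxA. A further 5 genes passed on some complete arrays and 22 on none. By position, 4 of 8 anterior genes (paralogs 1 to 3), 3 of 15 central genes (paralogs 4 to 8) and 1 of 16 posterior genes (paralogs 9 to 13) were shared by both groups.

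**Figure D1:**
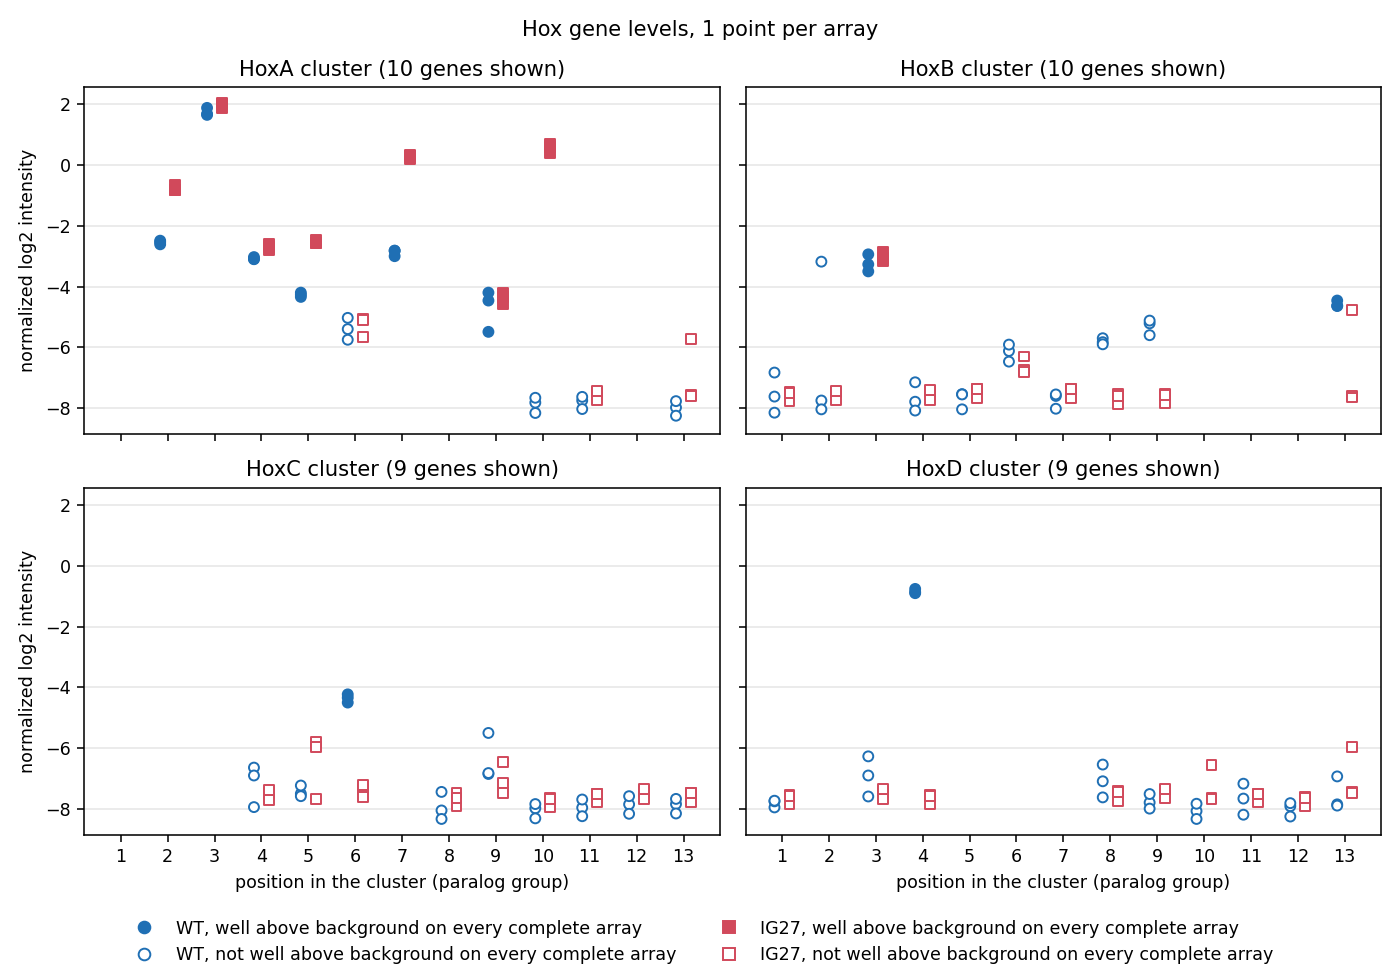
Normalized log2 intensity of the *Hox* genes described here (vertical axis) by paralog number (horizontal axis), 1 panel per cluster and 1 point per array, with WT as circles and IG27 as squares, filled where all complete arrays of the group carried the flag for well above background. The filled points lie mostly in HoxA, the 3 *Hoxa10* squares sit between 0.41 and 0.68 above open circles near -8, and the 3 *Hoxd4* circles sit between -0.90 and -0.76 above open squares near -7.5; each point compares arrays for 1 probe, and heights of different genes are not comparable.

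A gene was tested when all complete arrays of WT cells, of IG27 cells or of both flagged a probe of it, which 12 of 39 *Hox* genes (30.8%) and 65.0% of all named genes met. Of the 12, limma with Benjamini-Hochberg adjustment over all 14898 genes tested called 9 at an adjusted p under 0.05, 6 higher and 3 lower in IG27 cells. Over all genes tested, 70.5% were called, 30.5% higher and 40.0% lower, so a call by itself was common in this comparison. The groups did not overlap in 9 of the 12, against 75.7% of all genes tested. For a gene flagged in 1 group only the filter itself favors a difference, so the 8 genes measured in both groups are the plainer count: 5 were called higher and 1 lower. Among the 13538 genes flagged on all 5 complete arrays, 69.6% were called, 28.6% higher and 41.0% lower, so the share called was near the background. The median difference of the 12 was 0.29, beside -0.07 for all genes tested. All 6 genes called higher were in HoxA, which held 8 of the 12 genes tested. The 2 called genes of the other clusters, *Hoxc6* and *Hoxd4*, were both lower. WT cells alone flagged these 2, so a call could only be lower, and the filter sets that part of the cluster contrast. With the slide row as a block 8 of the 9 kept their call, and *Hoxa3* did not (0.32, adjusted p = 0.0591, limma). In bulk RNA, fewer cells with a transcript and less transcript per cell cannot be told apart.

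The promoters of *Hoxa2*, *Hoxa5*, *Hoxa7*, *Hoxa10* and *Hoxd4*, the called genes that differed by over 1 on the log2 scale and have an entry in the table, are printed first, since CpG-rich promoters of the clusters are where Polycomb complexes are known to bind. Each is a window of 300 bases at a RefSeq start site, read 5′ to 3′ along the gene's strand from RefSeq on GRCm38.p6, with every CG in capitals. *Hoxa2* lies at chr6:52164782-52165081, *Hoxa5* at chr6:52204538-52204837, *Hoxa7* at chr6:52218524-52218823, and the 2 *Hoxa10* starts at chr6:52240805-52241104 and chr6:52234890-52235189, all on the minus strand. *Hoxd4* lies at chr2:74721728-74722027 on the plus strand.
Hoxa2: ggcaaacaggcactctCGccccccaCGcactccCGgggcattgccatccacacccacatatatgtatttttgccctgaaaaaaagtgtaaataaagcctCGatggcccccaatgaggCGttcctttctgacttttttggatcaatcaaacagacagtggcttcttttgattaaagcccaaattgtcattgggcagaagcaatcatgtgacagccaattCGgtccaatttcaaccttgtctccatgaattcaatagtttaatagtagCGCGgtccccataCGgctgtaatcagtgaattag
Hoxa5: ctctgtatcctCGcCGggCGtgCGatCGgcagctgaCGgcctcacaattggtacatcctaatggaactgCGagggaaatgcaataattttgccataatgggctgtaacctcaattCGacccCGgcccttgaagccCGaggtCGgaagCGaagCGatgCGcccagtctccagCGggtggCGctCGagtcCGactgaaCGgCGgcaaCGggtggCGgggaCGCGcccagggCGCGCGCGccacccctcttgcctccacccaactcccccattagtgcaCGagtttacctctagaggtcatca
Hoxa7: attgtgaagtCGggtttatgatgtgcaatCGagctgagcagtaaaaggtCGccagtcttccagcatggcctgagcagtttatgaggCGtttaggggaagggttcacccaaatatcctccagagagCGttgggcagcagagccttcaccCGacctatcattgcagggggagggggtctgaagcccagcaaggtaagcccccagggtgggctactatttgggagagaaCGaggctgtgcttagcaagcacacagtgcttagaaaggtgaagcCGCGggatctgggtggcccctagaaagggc
Hoxa10, outer start: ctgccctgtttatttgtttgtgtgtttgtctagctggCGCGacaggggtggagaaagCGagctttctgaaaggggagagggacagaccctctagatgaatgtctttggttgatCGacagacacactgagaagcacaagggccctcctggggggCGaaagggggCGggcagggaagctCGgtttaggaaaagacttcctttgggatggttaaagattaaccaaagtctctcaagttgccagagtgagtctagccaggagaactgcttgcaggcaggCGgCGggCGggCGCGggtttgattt
Hoxa10, inner start: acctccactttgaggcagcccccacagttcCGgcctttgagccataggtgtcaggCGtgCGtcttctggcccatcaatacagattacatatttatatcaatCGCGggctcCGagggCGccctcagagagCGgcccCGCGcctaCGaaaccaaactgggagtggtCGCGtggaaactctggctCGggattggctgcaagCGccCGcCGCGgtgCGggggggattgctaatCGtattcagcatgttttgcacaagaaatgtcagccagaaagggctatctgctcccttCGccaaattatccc
Hoxd4: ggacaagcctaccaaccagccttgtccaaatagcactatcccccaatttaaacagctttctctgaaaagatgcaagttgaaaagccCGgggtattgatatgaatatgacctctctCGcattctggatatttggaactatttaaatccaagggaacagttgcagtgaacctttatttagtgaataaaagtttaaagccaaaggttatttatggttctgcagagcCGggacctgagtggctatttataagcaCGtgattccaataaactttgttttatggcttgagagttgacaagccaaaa

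These windows hold 9 CpGs for *Hoxa2*, 29 for *Hoxa5*, 9 for *Hoxa7*, 12 and 21 for the outer and inner *Hoxa10* starts, and 4 for *Hoxd4*. The table held 24 windows for 22 *Hox* genes, with a median of 14.5 CpGs and a range of 4 to 45, against a median of 7.0 over all 32851 windows. The letters TATAAA, the core of the TATA box, searched on both strands, occurred in the inner *Hoxa10* and the *Hoxd4* window and in 13.6% of all windows. The *Hoxd4* window also held AGGTCA, a site of nuclear receptors such as the retinoic acid receptors (16.3% of all windows), and TTTATNG, a motif of Cdx and posterior Hox proteins (10.9%). TTTATNG can overlap the reverse complement of TATAAA where its N is A, but its matches in this window have G or T there. *Hoxa5* held AGGTCA as well, and *Hoxa2* held TGACAG, the core bound by Meis proteins (19.2%). The table has no window for *Hoxa4*, *Hoxb3*, *Hoxb13* or *Hoxc6*.

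Toward the anterior end of HoxA, *Hoxa2* rose clearly and *Hoxa3* slightly. *Hoxa2*, which patterns the hindbrain and the skeleton of the pharyngeal arches, measured -2.61, -2.54 and -2.49 in WT replicates 1 to 3 and -0.65, -0.82 and -0.81 in IG27 replicates 1 to 3. Every IG27 array was above every WT array, and the difference was 1.78 (standard error 0.07, adjusted p = 2.54e-06, limma), a 3.44-fold rise. *Hoxa3*, known for its part in forming the thymus and parathyroid glands, measured 1.68, 1.65 and 1.88 in WT cells and 2.00, 1.87 and 2.04 in IG27 cells. WT replicate 3 and IG27 replicate 2 overlapped here, and the difference of 0.23 (standard error 0.08) only just passed (adjusted p = 0.0435, limma). The call was lost in 7 of 15 alternatives, among them leaving out WT replicate 1 (0.21, adjusted p = 0.114), WT replicate 2 (0.19, adjusted p = 0.121), IG27 replicate 1 (0.22, adjusted p = 0.115) or IG27 replicate 3 (0.20, adjusted p = 0.129). The dimmer *Hoxa3* probe differed by 0.17, with overlapping groups.

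In the middle of HoxA every gene that was tested was higher in IG27 cells. *Hoxa4* was slightly higher, at -3.03, -3.09 and -3.10 in WT cells and -2.80, -2.69 and -2.61 in IG27 cells. The difference was 0.38 (standard error 0.06, adjusted p = 0.00209, limma) and 0.21 after quantile normalization (adjusted p = 0.032). *Hoxa5*, which is needed for lung and cervical development, measured -4.27, -4.20 and -4.34 in WT cells and -2.58, -2.56 and -2.48 in IG27 cells.

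The *Hoxa5* groups stood well apart, by 1.73 (standard error 0.06, adjusted p = 1.59e-06, limma), a 3.32-fold rise, which was 1.05 with normexp background correction. That alternative needs scanner output and so leaves out IG27 replicate 2. It also starts from median signals and adds an offset of 50, so the fits differ in more than the correction. From the processed signals of the same arrays the difference was 1.74. *Hoxa6*, the next gene along the cluster, was well above background on 2 of 3 WT arrays and 1 of 2 complete IG27 arrays and was not tested. Its values were -5.75, -5.03 and -5.40 in WT cells and -5.66, -5.07 and -5.09 in IG27 cells, so the groups overlapped. *Hoxa7*, a gene of the trunk, measured -2.82, -2.82 and -3.00 in WT cells and 0.33, 0.19 and 0.31 in IG27 cells.

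That *Hoxa7* rise of 3.16 (standard error 0.07, adjusted p = 3.54e-07, limma), or 8.93-fold, was the largest among the *Hox* genes measured in both groups. It ranged from 2.73 to 3.20 over 15 alternatives.

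At the posterior end of HoxA a single gene changed from background to a clear signal. *Hoxa9*, known in blood stem cells and leukemia, measured -5.49, -4.20 and -4.46 in WT cells and -4.57, -4.20 and -4.35 in IG27 cells. The groups overlapped and the difference of 0.34 (standard error 0.34) did not pass (adjusted p = 0.394, limma). The other *Hoxa9* probe, not used in the test, read -2.23 in WT replicate 1 and -5.54 or lower on the other arrays.

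*Hoxa10*, which patterns the lumbar region and the uterus, measured -7.82, -7.66 and -8.16 in WT cells, where no array was well above background, and 0.58, 0.41 and 0.68 in IG27 cells. The gene was at least 80.4-fold higher in IG27 cells, when each WT array is given its lowest signal well above background (-6.01 to -5.53). That bound is a convention, since a probe without the flag can read somewhat above that signal. The fitted difference was 8.44 (standard error 0.14, adjusted p = 1.40e-07, limma). With normexp on median signals it was 4.76, against 8.51 from the processed signals of the same 5 arrays. The other *Hoxa10* probe behaved likewise, at -7.77, -7.52 and -8.09 in WT cells against -2.09, -2.01 and -2.20 in IG27 cells, at least 12.7-fold higher. The neighboring *Hoxa11* and *Hoxa13* were not well above background on any complete array, so the signal of *Hoxa10* stood without that of the genes beyond it.

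Around the coding genes of HoxA, the noncoding RNA *Mira*, transcribed between *Hoxa6* and *Hoxa7*, moved with *Hoxa7*. It measured -2.52, -2.26 and -3.47 in WT cells and 0.24, 0.13 and 0.00 in IG27 cells, a difference of 2.87 (standard error 0.31, adjusted p = 2.43e-04, limma). *Hoxaas3*, an antisense transcript of the cluster, was lower in IG27 cells (-0.44, adjusted p = 0.00628, limma). Of 19 listed noncoding RNAs of the 4 clusters, 8 were on the array and 6 were tested, with 1 called higher and 1 lower. Over all genes tested 30.5% were called higher and 40.0% lower. *Hoxa11os*, *Hottip*, *Hoxb5os* and *Haglr* did not pass, with differences of -0.08, -0.23, 0.10 and -0.26. Outside the cluster, the signaling adaptor gene *Skap2* beyond the anterior end differed by 0.20 and the metabolic gene *Hibadh* beyond *Evx1* by -0.64, both called, and *Evx1* was not well above background.

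**Figure D2:**
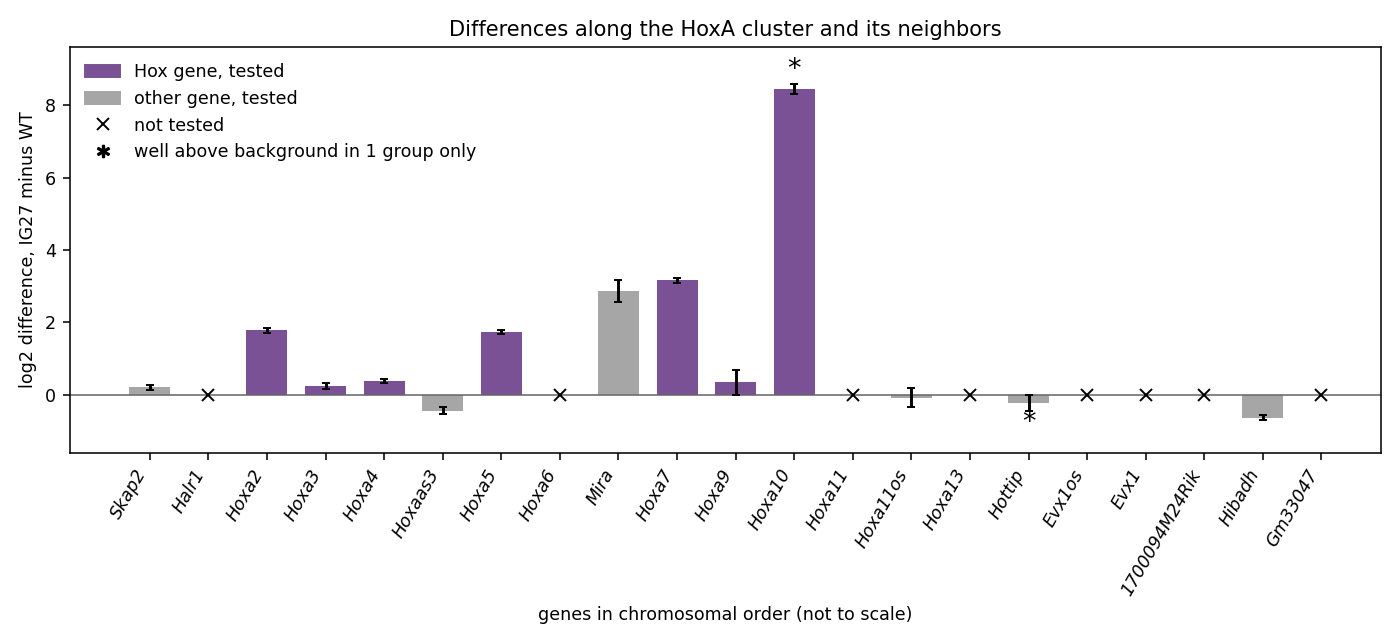
Fitted log2 difference, IG27 minus WT, for the genes described here of HoxA and its flanks in chromosomal order (not to scale), with error bars of 1 standard error from limma, crosses for genes not tested and asterisks for genes well above background in 1 group only, whose bar is a fitted value and not a bound. The tall bars are *Mira* at 2.87, *Hoxa7* at 3.16 and *Hoxa10* at 8.44, with the short bar of *Hoxa9* (0.34) between *Hoxa7* and *Hoxa10*. *Hoxa6*, just before *Mira*, was not tested, and *Hoxaas3* and *Hibadh* lie below 0.

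Outside HoxA, the called genes were flagged in WT cells alone, so they could only be called lower in IG27 cells. *Hoxd4*, which is active in the caudal hindbrain and spinal cord, measured -0.76, -0.86 and -0.90 in WT cells and -7.54, -7.84 and -7.57 in IG27 cells. No IG27 array was well above background, and by the same bound the decrease was at least 22.8-fold. The fitted difference was -6.81 (standard error 0.09, adjusted p = 9.19e-08, limma). With normexp on median signals it was -3.46, against -6.72 from the processed signals of the same 5 arrays. *Hoxd4* was the 1 HoxD gene well above background, and its neighbors *Hoxd3* and *Hoxd8* were so on no complete array.

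*Hoxc6*, a gene of the thoracic region, was dimmer, and it measured -4.34, -4.23 and -4.50 in WT cells and -7.34, -7.62 and -7.21 in IG27 cells. The decrease was at least 1.99-fold, with a fitted difference of -3.03 (standard error 0.12, adjusted p = 3.57e-06, limma). With normexp on median signals the difference was -0.67, against -2.92 from the processed signals of the same 5 arrays. Its WT levels lay little above the lowest signals well above background, which keeps the bound small.

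*Hoxb13*, the most posterior HoxB gene and known from the prostate, measured -4.64, -4.46 and -4.63 in WT cells and -7.61, -4.77 and -7.65 in IG27 cells. IG27 replicate 2, the array with incomplete scanner output, lay near the WT arrays and apart from the other IG27 arrays. The difference of -2.10 (standard error 0.78) did not pass (adjusted p = 0.0503, limma), while without IG27 replicate 2 it was -3.05 (adjusted p = 8.48e-06). Over the complete arrays the decrease was at least 1.70-fold. With all 6 arrays it was called after quantile normalization (-2.45, adjusted p = 0.0352), with an eBayes trend (adjusted p = 0.0279) and with the replicate number as a block (adjusted p = 0.0434), and not in the other fits with adjusted p-values that kept IG27 replicate 2 and tested it.

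*Hoxb3*, a hindbrain gene, was the 1 HoxB gene bright in both groups. It measured -3.27, -2.94 and -3.50 in WT cells and -2.87, -3.17 and -3.07 in IG27 cells, overlapping, and the difference of 0.20 (standard error 0.16) did not pass (adjusted p = 0.289, limma). *Hoxb9* and *Hoxb8* were dim but apart between the groups. *Hoxb9* measured -5.21, -5.60 and -5.12 in WT cells, well above background on 2 of 3 arrays, and -7.54, -7.82 and -7.56 in IG27 cells.

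For *Hoxb8* the values were -5.70, -5.83 and -5.90 in WT cells, well above background on 1 of 3 arrays, and -7.54, -7.86 and -7.60 in IG27 cells. Neither gene met the filter, and with no filter both were called lower (a difference of -2.33 for *Hoxb9*, adjusted p = 1.42e-04, and of -1.86 for *Hoxb8*, adjusted p = 8.69e-05, limma). The other probes of these genes overlapped between the groups, with differences of 0.17 and 1.25, and that of *Hoxb8* read -4.54 in IG27 replicate 3. *Hoxb2* was well above background on WT replicate 2 alone, at -3.18 against -8.04 to -7.45 on the other arrays. *Hoxc9* was well above background on that array as well, at -5.50.

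The 22 genes well above background on no complete array were *Hoxa11* and *Hoxa13*, *Hoxb1*, *Hoxb4*, *Hoxb5*, *Hoxb6* and *Hoxb7*, 7 HoxC genes and 8 HoxD genes. Their values ran from -8.33 to -5.91 in WT cells (median -7.76) and from -7.93 to -5.72 in IG27 cells (median -7.50). The highest IG27 value was that of *Hoxa13* in IG27 replicate 2, an array with no flags of its own, where the other IG27 arrays read -7.57 and -7.61. A difference in these genes was not detectable at this signal, which does not show that they were silent.

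**Figure D3:**
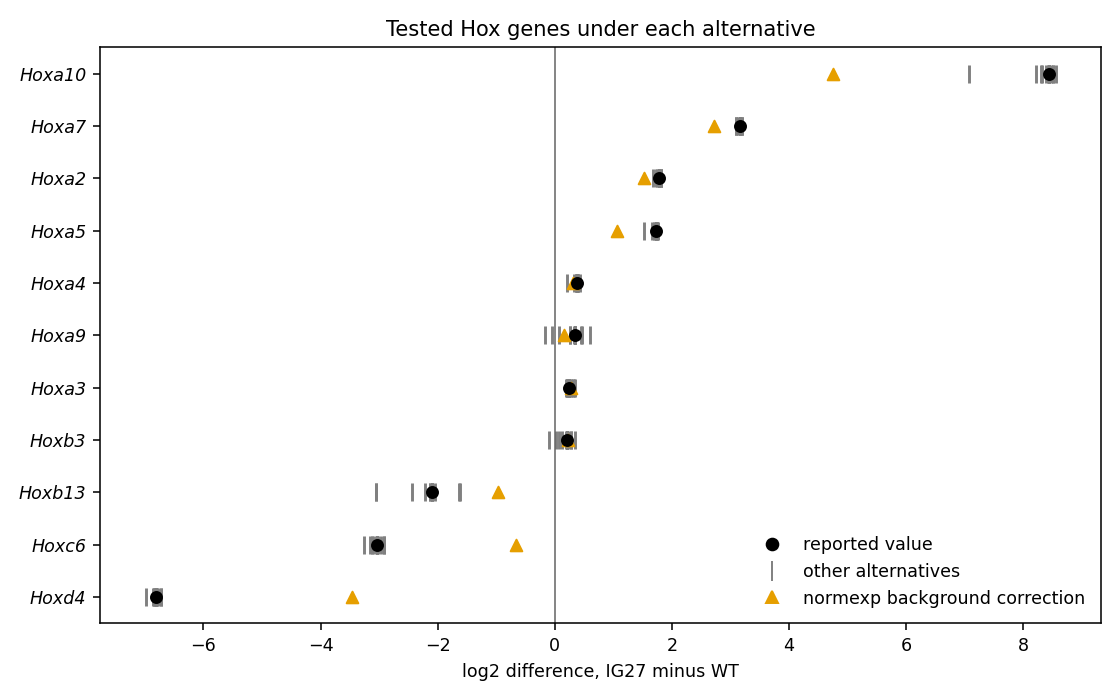
Log2 difference, IG27 minus WT, of the tested *Hox* genes described here, as reported (circles), under the other alternatives (gray marks) and with normexp background correction on the 5 complete arrays (triangles). No called gene crosses 0, normexp moves *Hoxa10* to 4.76, *Hoxd4* to -3.46 and *Hoxc6* to -0.67, and the marks of *Hoxa9* (-0.18 to 0.60) and *Hoxb3* (-0.10 to 0.35) fall on both sides of 0.

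Hox proteins bind DNA together with proteins of the TALE family, and all 11 listed TALE genes were tested. In IG27 cells 2 were called higher and 5 lower, with a median difference of -0.04. The share called was near that of all genes tested (70.5% called, 30.5% higher and 40.0% lower). *Meis3* was the gene that fell most, from 1.44, 1.49 and 1.44 in WT cells to -0.94, -0.77 and -0.90 in IG27 cells (-2.32, standard error 0.06, adjusted p = 6.22e-07, limma). *Meis1* measured 0.57, 0.58 and 0.60 in WT cells and -0.63, -0.61 and -0.84 in IG27 cells (-1.28, standard error 0.07, adjusted p = 1.51e-05, limma).

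All 3 Meis genes, whose proteins form complexes with Pbx and Hox proteins, were thus lower in IG27 cells, *Meis2* with a difference of -1.22 (adjusted p = 4.01e-06, limma). *Pbx4* (-1.10) and *Pknox2* (-0.73) were also lower. The called rises were *Tgif1*, a TALE repressor, at 1.67 and *Pbx2* at 0.62, while *Pbx3* (0.04), *Pknox1* (-0.04) and *Tgif2* (0.19) did not pass.

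Of 14 listed activators of *Hox* genes, 13 were on the array and 11 were tested. Of these 3 were called higher and 4 lower, with a median difference of -0.01. The share called was near that of all genes tested (70.5% called, 30.5% higher and 40.0% lower). *Egr2*, which switches on *Hoxa2* and *Hoxb2* in the hindbrain, measured 0.02, 0.25 and 0.01 in WT cells and 4.87, 4.86 and 4.91 in IG27 cells. Its difference of 4.78 (standard error 0.08, adjusted p = 1.29e-07, limma) was the largest rise in the list. The Cdx genes, activators of the middle of the clusters, were dim: *Cdx1* was well above background in WT cells alone (a decrease of at least 1.47-fold) and *Cdx2* and *Cdx4* on no complete array. Of the Trithorax group and its partners, *Mllt3* (-0.90) and *Ash2l* (-0.69) were called lower. *Men1* (0.38) and *Rbbp5* (0.46) were called higher. *Kmt2b*, *Psip1*, *Wdr5* and *Dot1l* did not pass, with differences of -0.06 to 0.08. Whether any of these genes had a part in the *Hox* differences was not tested.

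**Figure D4:**
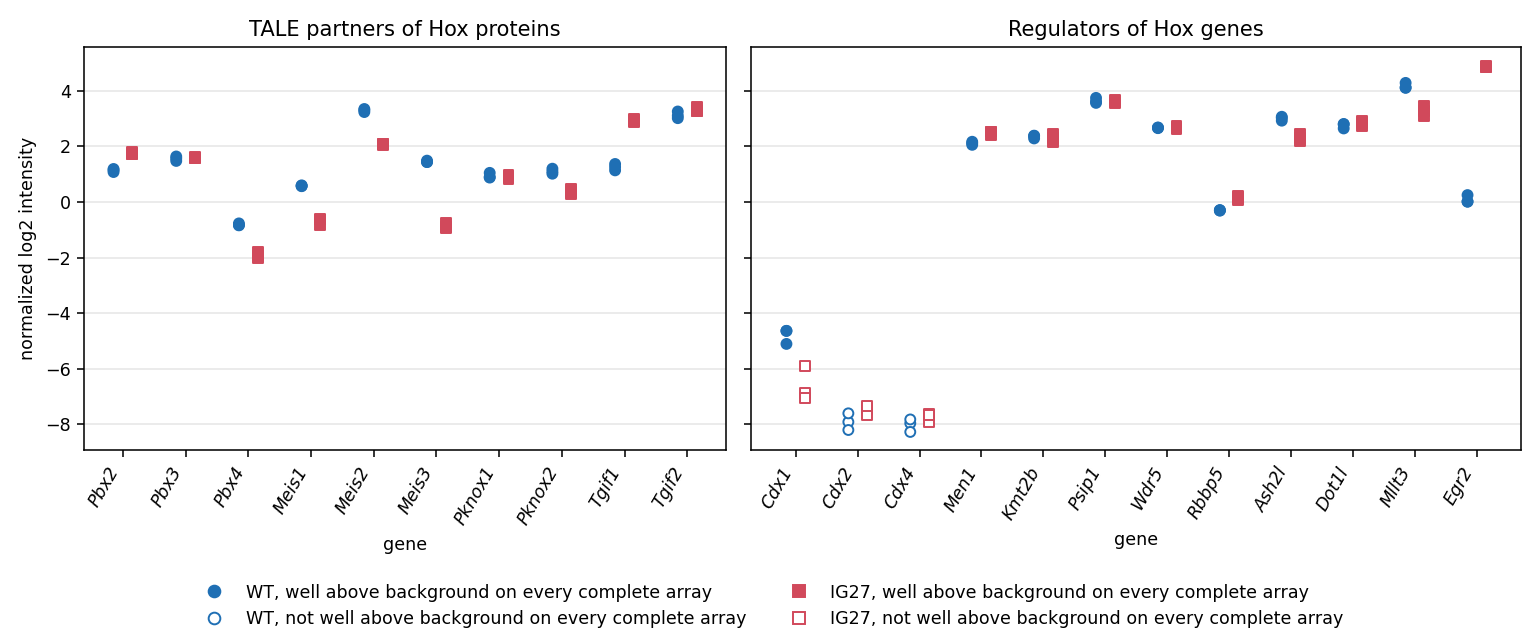
Normalized log2 intensity per array of the TALE genes (left) and *Hox* activators (right) described here, with WT as circles and IG27 as squares, filled where all complete arrays of the group carried the flag for well above background. The Meis genes are lower in IG27 cells, *Egr2* rises from between 0.01 and 0.25 to between 4.86 and 4.91, and the IG27 squares of *Cdx1*, *Cdx2* and *Cdx4* are open.

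Of the 26 genes listed from the flanks of the 4 clusters, 25 were on the array and 20 were tested. Of these 7 were called higher and 9 lower, with a median difference of -0.18. Among all genes tested 70.5% were called, 30.5% higher and 40.0% lower, so calls were common here too. *Evx2*, a homeobox gene beside *Hoxd13*, measured -4.33, -3.86 and -3.83 in WT cells and -2.13, -1.98 and -2.17 in IG27 cells. It was higher by 1.92 (standard error 0.15, adjusted p = 5.32e-05, limma), although no HoxD gene was well above background in IG27 cells. The other called genes beside HoxD fell, with differences of -0.95 for *Lnpk*, -0.72 for *Mtx2*, -0.38 for *Hnrnpa3*, -0.76 for *Atp5g3* and -1.29 for *Nfe2l2*. Beside HoxB, *Ttll6* (-0.74) and *Atp5g1* (-0.53) were called lower and *Cbx1* (0.33) and *Nfe2l1* (0.24) higher. Beside HoxC, *Hnrnpa1* (0.23), *Copz1* (0.16) and *Calcoco1* (0.31) were called higher, and beside HoxA *Snx10* (-0.42) was called lower as well.

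Transcription factors of the forebrain and midbrain, where *Hox* genes are normally silent, were measured in the same cells. *En2*, a gene of the midbrain and anterior hindbrain, differed by 0.25 (adjusted p = 0.00575, limma). *Lhx2*, a forebrain gene, was higher in IG27 cells by 2.95 and *Six3*, an anterior forebrain gene, at least 15.1-fold lower. Of the 8 genes of this list 4 were tested, with 2 called higher and 2 lower, and *Otx1*, *Emx2* and *En1* were not well above background. Over all genes tested 70.5% were called, 30.5% higher and 40.0% lower.

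Markers of other cell types also differed between the groups, in a comparison in which 70.5% of all genes tested were called. Of 4 endothelial markers 1 was called higher and 1 lower. The defining genes *Cdh5* and *Tek* were not well above background on any complete array, and the growth factor receptor gene *Kdr* was at least 134.8-fold higher in IG27 cells. The summed level of the endothelial list, as log2 of the summed signals, was -2.57 to -2.40 in WT cells and 1.38 to 1.42 in IG27 cells. In IG27 cells the sum was mostly *Kdr* (1.29 to 1.33) and in WT cells mostly *Pecam1* (-2.66 to -2.53). *Pecam1* itself was called lower in IG27 cells (-0.27, adjusted p = 0.0253, limma), so the rise of the sum is that of *Kdr*. For the 5 microglia markers (2 called higher and 1 lower), the sum was 3.55 to 3.62 in WT cells and 3.58 to 3.63 in IG27 cells, and the defining genes *Cx3cr1* and *Ptprc* were well above background on no complete array.

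Of the 6 fibroblast and mesenchymal markers, 3 were called higher and 2 lower, with a summed level of 7.22 to 7.26 in WT cells and 7.07 to 7.16 in IG27 cells. *Twist1*, a mesenchymal transcription factor gene, was well above background in IG27 cells alone and at least 18.5-fold higher. *Col3a1* was higher by 1.57 and *Dcn* at least 3.32-fold, while *Col1a1* (-0.92) and *Pdgfrb* (-1.16) were called lower. The 5 neuron markers (1 called higher and 1 lower) summed to 4.13 to 4.31 in WT cells and 3.32 to 3.46 in IG27 cells. *Tubb3* was called lower (-2.63, adjusted p = 4.14e-07, limma) and *Map2* higher (8.03, adjusted p = 6.29e-07, limma). The WT values of *Map2* were -6.71, -6.19 and -5.84, well above background on 1 of 3 arrays, so the size of its rise rests on signals near background. *Snap25* was well above background in both groups and did not pass (-0.11). The neuronal genes *Rbfox3* and *Syt1* were well above background on no complete array. The part of other cell types in the *Hox* values was not tested.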

How the data were processed

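RNA from 3 WT and 3 IG27 samples was hybridized to single-color Agilent SurePrint G3 mouse arrays. The authors extracted spot intensity with Feature Extraction (version 10.7.3.1 per the file headers, 9.1 per the submitters' processing notes), and the deposited values are linear processed intensity, in scanner output and in a table. The scanner output of IG27 replicate 2 stops early, so its intensity came from the deposited table, which equaled its 255 single-spot probes present (relative tolerance 1e-04). The table exchanges WT replicates 2 and 3, and the scanner labels were used. Depth does not apply to arrays, and their number limits the precision.

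Log2 values minus the 75th percentile of each array were computed without outlier spots (107 to 210 per complete array). Probes were named through RefSeq accessions (32994 probes, 22911 genes). For each gene the brightest probe that Feature Extraction flagged as well above background on all complete arrays of a group was tested with limma 3.58.1 (R 4.3.3, lmFit and eBayes, two-sided, Benjamini-Hochberg over 14898 genes, threshold 0.05). Where 1 group was not well above background, a bound compared the mean of the bright group with the dim group's mean, over its complete arrays, of the higher of the probe's value and the lowest value well above background. The gene lists are the TALE genes, *Hox* activators, flanking genes, noncoding RNAs and markers of 8 cell types or regions. The members and lists were chosen with earlier results of these data known, and genes were named by membership, and those of the lists by their roles. A few genes counted in these totals are not reported here by name or value. On simulated data, 160 of 200 genes changed by 1 on the log2 scale were recovered, with 7 false calls. Alternatives were quantile normalization, other filters, outlier spots kept, the mean of probes, an eBayes trend, the replicate number or slide row as a block, normexp (on median signals, as the files hold no mean signals, and on the complete arrays alone), complete arrays (the fit without IG27 replicate 2, counted once), an unadjusted p and each array left out. Normexp added an offset of 50 to the corrected signals. The methods name moderated tests in GeneSpring, which were not used here.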

Additional observations from a re-analysis of the deposited data

How the results depend on the processing

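No called *Hox* difference changed sign in the 15 alternative fits or with an unadjusted threshold. Leaving out 1 array gave 5 to 6 *Hox* genes called higher, 3 to 4 lower and a median difference of 0.18 to 0.37. The median was 0.14 after quantile normalization and 0.11 with the slide row as a block, where WT replicate 2 alone shares a row with IG27 samples, and 8946 of all genes were then called. With no filter on dim probes 5 *Hox* genes were called lower, and the median of all genes moved from -0.07 to 0.12. With the stricter filter 1 was called lower, since fewer genes were tested. The unadjusted threshold called 6 higher and 4 lower.

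The replicate number as a block (6 higher, 4 lower, median 0.29) added *Hoxb13* (adjusted p = 0.0434, limma) and called 10309 of all genes against 10501. The labels do not say whether same-numbered samples were prepared together. Their deviations correlated by 0.012, 0.040 and 0.076, beside -0.094 to 0.059 for samples of different numbers. With 3 samples per group this cannot decide whether they were paired.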

Other observations

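Among the glial markers, which the text above touches only as a check of the cell type, the oligodendrocyte lineage list held 4 of 7 genes called higher and 2 lower in IG27 cells, with a median difference of 0.92. Of all genes tested, 30.5% were called higher and 40.0% lower. *Pdgfra*, the receptor of oligodendrocyte progenitors, measured -1.73, -1.76 and -1.76 in WT cells and 0.62, 0.60 and 0.61 in IG27 cells (2.36, standard error 0.04, adjusted p = 1.60e-07, limma). *Olig1* and *Olig2*, transcription factor genes of the lineage, were higher by 1.48 and 1.51, and the myelin gene *Mbp* by 0.92, while *Sox10* fell, with a difference of -0.37. Of 6 astrocyte markers 2 were called higher and 3 lower. *Gfap* measured 6.56, 6.66 and 6.71 in WT cells and 5.41, 5.60 and 5.70 in IG27 cells (-1.07, adjusted p = 6.93e-05, limma), whereas *S100b* was higher by 4.93 (adjusted p = 1.48e-07, limma). Of the neural progenitor markers, *Fabp7* was at least 110.4-fold higher in IG27 cells and *Sox2* and *Nes* fell, with differences of -0.80 and -0.49.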
